A study of Mus musculus with 14 samples.

Results

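The transcripts of 9 genes that code for gap junction and pannexin channel proteins were followed in the mouse superior colliculus, the part of the midbrain to which retinal axons project. The genes were the connexins Gjd2, Gjc1, Gja1, Gjb6, Gjb2, Gjb1 and Gja4 and the pannexins Panx1 and Panx2, found by matching Ensembl IDs to mouse symbols. All 9 were among the 55359 gene IDs in each count table, and all 9 passed the filter on low counts, which left 20330 genes to test. Pups had been given carbenoxolone (cbx, a blocker of gap junction and pannexin channels) at 50 mM, or saline, injected into the eye on postnatal day 0 or 1, and the colliculus was dissected at postnatal day 6. There were 4 libraries of superficial layers after cbx, 3 of superficial layers after saline, 4 of deep layers after cbx and 3 of deep layers after saline. All animals were ICR/CD-1 mice with no genetic change named, and each library pooled the tissue of 3 brains.

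Connexins assemble into hexamers in the membrane. The hexamers of neighbouring cells dock to form gap junctions, through which ions and small molecules pass between the cells, and undocked hexamers can open to the outside. In the brain each cell class uses its own connexins. Neurons form electrical synapses mainly with the protein of Gjd2 (Cx36), astrocytes couple through those of Gja1 (Cx43) and Gjb6 (Cx30), and the fibroblasts of the meninges carry much of the protein of Gjb2 (Cx26). Pannexins are related in shape but form channels in the membrane of a single cell, best known for letting ATP out. Carbenoxolone acts on the channel proteins. The drug was placed in the eye, and the transcripts were measured in the retina's target.

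The libraries held 32004952 to 48776827 counts each. Among the 9 genes, counts per library ran from 38 to 126 for Gjb1, the gene with the fewest, to between 7271 and 14770 for Gja1, the gene with the most. Levels are given as CPM, counts relative to library size, scaled by TMM factors. Differences between groups are on the log2 scale with their standard error (SE), and adjusted p-values come from edgeR's quasi-likelihood test with Benjamini-Hochberg adjustment over all 20330 genes, with a threshold of 0.05. Because each library is a pool, p-values measure the spread between pools and not between pups. Superficial and deep libraries of 1 treatment with the same number deviated together from their group means, and the main test treats them as independent. Saline pool 1 stood apart in Xist, transcribed from the inactive X chromosome of females, with 0.572 to 1.94 CPM, against 187 to 1127 CPM in the other pools. Cbx pool 4 had 0 counts of the Y-linked gene Ddx3y in both layers. Results that turn on these 2 pools are given with and without them. In superficial layers Ddx3y was at 15.99, 38.6, 17.7 and 0 CPM after cbx and at 70.8, 37.0 and 45.3 CPM after saline. Leaving out the 2 pools therefore did not make the treatments alike in Ddx3y. The part of the sex of the pups in the treatment differences was not tested. The 6 neuronal markers (Rbfox3, Snap25, Syt1, Stmn2, Map2 and Nefl) summed to 3957 to 4959 CPM over all libraries. Those of the choroid plexus and ependyma summed to 6.91 to 11.1 CPM and those of the pineal gland, which lies beside the colliculus, to 0.464 to 1.32 CPM. In bulk tissue, fewer cells of a type and less RNA per cell cannot be told apart.

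After cbx, 2 of the 9 genes rose in the superficial layers, Gjb2 and Gjb6, and none of the 9 fell. Over all genes tested, 2.68% were called higher and 1.65% lower in that comparison. The median difference over the 9 genes was 0.09 on the log2 scale, against 0.01 over all genes tested. In the deep layers none of the 9 genes passed the test in edgeR, DESeq2 or limma-voom, where edgeR called 1.06% of all genes higher and 0.777% lower. An unadjusted edgeR p under 0.05 was reached there by 0 of the 9 genes and by 3118 of the 20330 genes tested. The 9 genes had a median difference of 0.01 there, and all genes tested had a median of 0.01 as well.

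The difference between layers was wider. Gjc1, Gja1, Gjb6, Gjb2 and Gja4 were higher in superficial than in deep layers after cbx, while Gjd2 and Panx2 were lower there. After saline, Gjc1, Gjb6 and Gjb2 were higher and Gjd2 and Panx2 lower in superficial layers. Over all genes tested, 18.1% were higher and 14.1% lower in superficial layers of cbx pools, and 9.67% higher and 8.73% lower in superficial layers of saline pools. The median difference between layers was 0.28 over the 9 genes and 0.02 over all genes in cbx pools, and 0.17 over the 9 genes and 0.04 over all genes in saline pools. The comparisons share libraries: each group of libraries enters a treatment comparison and a layer comparison.

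**Figure D1:**
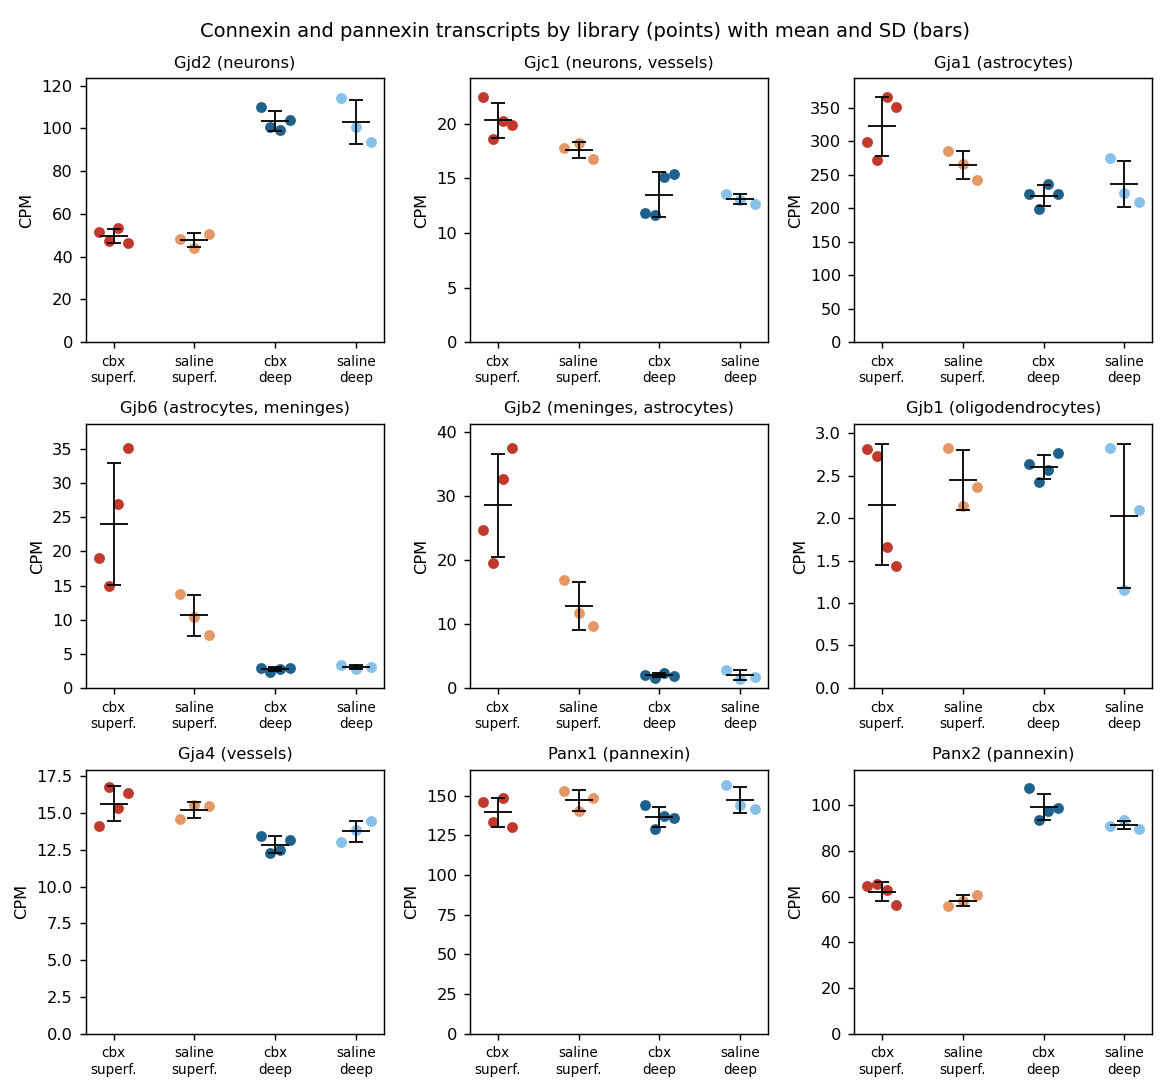
CPM (y axis, scaled by TMM factors, each panel with its own range from 0) of the 9 genes in every library (points) of the 4 groups (x axis), with the group mean and SD as bars. Gjb2 and Gjb6 stand highest in the cbx superficial libraries, with no overlap with the saline superficial libraries, while Gjd2 and Panx2 stand higher in deep than in superficial libraries.

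The largest differences belonged to Gjb2 and Gjb6, which code for the connexins Cx26 and Cx30, found together in the leptomeninges and, for Gjb6 above all, in astrocytes. Both genes lie next to each other on mouse chromosome 14 and are read from the same strand. Their 250 bases upstream of the transcript start, from RefSeq (GRCm38.p6), are shown because the genes moved together, and that of Gjd2, the neuronal connexin that differed between layers in the other direction, is set beside them. Capitals mark GC boxes (GGGCGG, searched on both strands), and each sequence is written 5′ to 3′ on the gene's strand.
Gjb2, chr14:57104703-57104952, minus strand: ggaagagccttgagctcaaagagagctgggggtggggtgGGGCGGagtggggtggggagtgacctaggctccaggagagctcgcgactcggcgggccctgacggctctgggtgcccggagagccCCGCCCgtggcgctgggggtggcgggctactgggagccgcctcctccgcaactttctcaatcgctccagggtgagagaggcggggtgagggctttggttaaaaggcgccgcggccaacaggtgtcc
Gjb6, chr14:57133612-57133861, minus strand: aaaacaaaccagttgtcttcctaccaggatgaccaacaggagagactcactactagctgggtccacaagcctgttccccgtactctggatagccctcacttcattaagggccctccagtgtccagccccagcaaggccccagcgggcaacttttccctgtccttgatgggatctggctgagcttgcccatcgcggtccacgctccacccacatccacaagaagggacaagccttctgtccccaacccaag
Gjd2, chr2:114013620-114013869, minus strand: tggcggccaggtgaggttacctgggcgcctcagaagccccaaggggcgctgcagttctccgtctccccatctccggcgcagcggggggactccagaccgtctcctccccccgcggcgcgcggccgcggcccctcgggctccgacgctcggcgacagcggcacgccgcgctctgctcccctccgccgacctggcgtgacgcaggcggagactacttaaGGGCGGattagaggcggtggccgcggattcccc

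The neighbours Gjb2 and Gjb6 differed in the makeup of these windows. The Gjb2 window was 69.2% G and C with 18 CpG sites and held 2 GC boxes, which start 211 and 126 bases before the transcript start. In the Gjb6 window 56.8% of bases were G or C, with 5 CpG sites and no GC box. The Gjd2 window had 74% G and C, 33 CpG sites and 1 GC box, 33 bases before the start. Over the 27018 mouse promoters in the RefSeq table the median was 52% G and C, and 32.9% held a GC box. Also searched on both strands were TATAAA (the TATA box), found in 13% of all promoters, CCAAT (the CCAAT box), found in 34.5%, and TGACGTCA (the core of a cAMP response element), found in 1.62%. None of these was in the 3 windows. The E-box CANNTG, found in 66.1% of all promoters, was in each of the 3 windows once, at 9 bases before the start for Gjb2, 241 for Gjb6 and 243 for Gjd2. Such matches are a description of the letters and not of binding.

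Gjb2 had 24.6, 19.4, 32.5 and 37.4 CPM in the cbx superficial libraries, against 16.8, 11.7 and 9.59 CPM in the saline superficial libraries. All 4 cbx libraries lay above all 3 saline libraries, and the spread was wide within each group. The same separation was seen for Gjc1, which did not pass the test. The share of all genes with such separation was not counted, in this or any other comparison. The rise of 1.17 (SE 0.253) on the log2 scale corresponded to a 2.24-fold higher level in cbx pools, with an adjusted p of 0.0233 in edgeR. In the deep layers Gjb2 was at 2.01, 1.61, 2.39 and 1.83 CPM after cbx and at 2.83, 1.33 and 1.71 CPM after saline. The deep libraries overlapped, and the difference of 0.01 had a 95% confidence interval of -0.70 to 0.72. The superficial difference had an interval of 0.62 to 1.71.

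Gjb6 followed the same order of libraries. It had 19.0, 14.9, 27.0 and 35.1 CPM in the cbx superficial libraries, against 13.7, 10.4 and 7.80 CPM in the saline superficial libraries. Again every cbx library was above every saline library. The difference was 1.18 (SE 0.251), a 2.26-fold higher level in cbx pools with an edgeR adjusted p of 0.0213. In the deep layers the levels were 2.89, 2.35, 2.71 and 2.95 CPM after cbx and 3.40, 2.75 and 3.06 CPM after saline, with a difference of -0.17 (95% confidence interval -0.80 to 0.46) that did not pass the test.

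The calls of Gjb2 and Gjb6 did not hold under every alternative. When the fit was limited to the 7 superficial libraries, the edgeR adjusted p was 0.094 for Gjb2 and 0.15 for Gjb6, and without saline superficial library 2 or 3 it was 0.0857 to 0.112 over both genes, while the log2 differences stayed between 1.00 and 1.17. Without saline pool 1 and cbx pool 4, the differences were 1.26 for Gjb2 (SE 0.205, adjusted p 0.0215 in edgeR) and 1.16 for Gjb6 (SE 0.216, adjusted p 0.0364).

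Between layers, Gjb2 was higher in superficial than in deep libraries by 3.86 (SE 0.271) after cbx, a 14.5-fold difference with an edgeR adjusted p of 1.133e-07. After saline the layer difference was 2.71 (SE 0.315), or 6.52-fold, with an adjusted p of 3.235e-05 in edgeR. For Gjb6 the layer difference was 3.14 (SE 0.256, edgeR adjusted p 3.661e-07) after cbx and 1.79 (SE 0.293, edgeR adjusted p 0.000524) after saline. The lowest superficial library lay above the highest deep library for both genes.

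Whether the effect of cbx differed between the layers was tested directly. The effect of cbx in superficial minus that in deep layers was 1.35 (SE 0.385) for Gjb6 and 1.16 (SE 0.415) for Gjb2, with unadjusted p of 0.00369 and 0.0153 but edgeR adjusted p of 0.371 and 0.493. In that test 0% of all genes were called by edgeR, although 1699 genes had an unadjusted p under 0.05, and limma-voom called 0 of the 9 genes. With the pool as a replicate block, which compares the layers within each pool, both genes passed: the difference was 1.31 for Gjb6 (edgeR adjusted p 0.0223) and 1.12 for Gjb2 (edgeR adjusted p 0.0247). The blocked test called 0.271% of all genes higher. DESeq2 called Gjb6 (adjusted p 0.0323) and not Gjb2 (adjusted p 0.313). Without saline pool 1 and cbx pool 4, and with no block, neither gene passed. The difference was then 1.29 for Gjb6 (SE 0.326, edgeR adjusted p 0.438) and 0.87 for Gjb2 (SE 0.334, edgeR adjusted p 0.647).

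**Figure D2:**
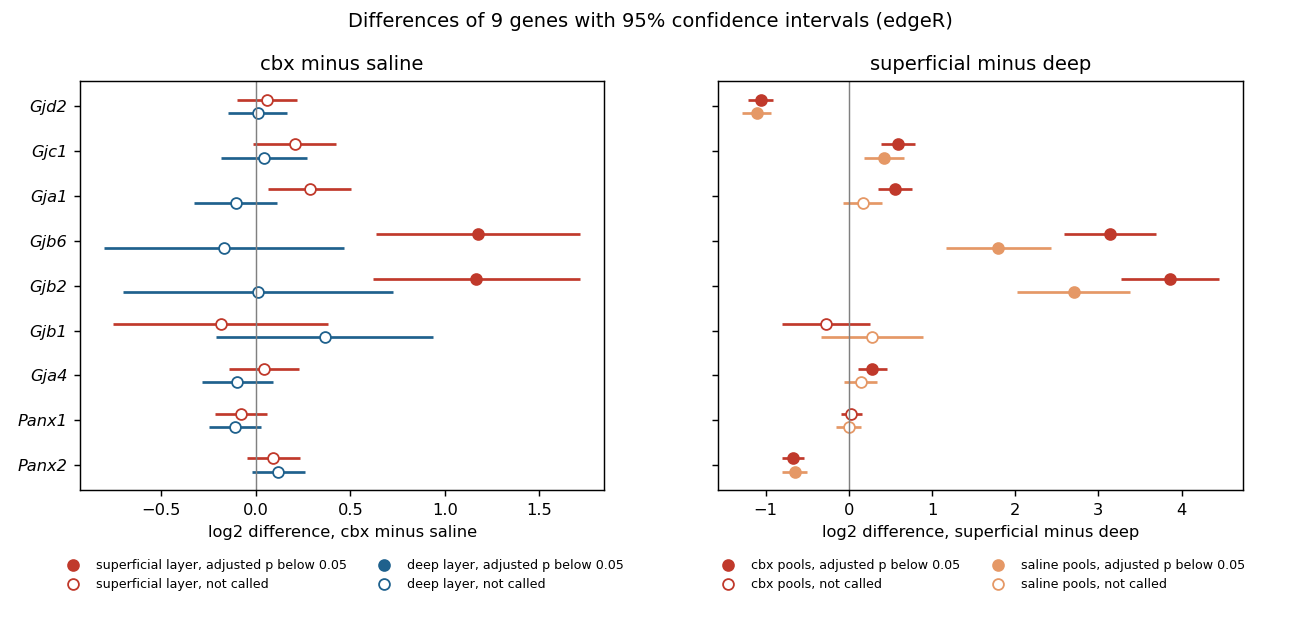
Log2 differences (x axes) of the 9 genes (y axis) with 95% confidence intervals from edgeR, as cbx minus saline within each layer on the left and superficial minus deep within each treatment on the right. Filled points passed an adjusted p of 0.05; on the left these are Gjb6 and Gjb2 in superficial layers, and on the right Gjb2 after cbx lies furthest from 0, at 3.86.

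Markers of meningeal fibroblasts, the cells that cover the surface of the colliculus, moved with Gjb2 and Gjb6. The 12 markers (Dcn, Lum, Col1a1, Col1a2, Islr, Pcolce, Slc22a6, Foxc1, Crabp2, Slc6a13, Ogn and Igf2) summed to 732 to 1468 CPM in cbx superficial libraries and 557 to 825 CPM in saline superficial libraries. In the deep layers they summed to 42.9 to 57.3 CPM after cbx and 65.1 to 75.7 CPM after saline. No marker had 0 counts in all 14 libraries. In superficial layers 6 of the 12 markers rose after cbx and none fell, among them Pcolce (0.89, SE 0.181, adjusted p 0.0123), which codes for an enhancer of procollagen processing, and Slc22a6 (1.08, SE 0.233, adjusted p 0.0229), which codes for an organic anion transporter. Over the 12 markers the superficial differences between cbx and saline ran from 0.34 to 1.93, with a median of 0.54. All 12 were higher in superficial than in deep layers in both treatments. In the deep layers 0 of 12 passed the test between cbx and saline, with a median difference of -0.46.

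Set against these markers, Gjb2 amounted to 2.55 to 3.06 CPM per 100 CPM of meningeal markers in cbx superficial libraries and to 1.72 to 2.04 in saline superficial libraries. Gjb6 amounted to 2.04 to 2.46 CPM per 100 CPM of markers in cbx superficial libraries and to 1.40 to 1.67 in saline superficial libraries. The cbx and saline ranges did not overlap for either gene in superficial layers. In deep layers, where Gjb2 had 44 to 96 counts, it amounted to 3.27 to 4.69 CPM per 100 CPM after cbx and 1.76 to 4.02 after saline. Gjb6 amounted there to 4.74 to 6.74 CPM per 100 CPM after cbx and 3.63 to 4.84 after saline, while its own level did not pass the test between treatments and the marker sum was lower in every cbx deep library than in every saline deep library. The highest marker sum and the highest Gjb2 and Gjb6 in superficial layers were in cbx pool 4, and among the saline superficial libraries all 3 values were highest in pool 1. Set against the astrocyte markers instead, Gjb6 amounted to 0.473 to 1.18 CPM per 100 CPM in cbx superficial and 0.248 to 0.357 in saline superficial libraries. In deep layers these values were 0.104 to 0.124 after cbx and 0.102 to 0.117 after saline. The part of the meningeal or astrocyte markers in the rise of Gjb2 and Gjb6 was not tested.

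Other cell classes also moved in superficial layers. Of the 6 microglial markers 4 rose after cbx, among them C1qa (0.64, SE 0.081, adjusted p 0.000686), and their sums were 249.9 to 266 CPM in cbx libraries and 193 to 211 CPM in saline libraries. Of the 5 red blood cell genes 1 rose, with sums of 238 to 388 CPM in cbx libraries and 149 to 230 CPM in saline libraries. Of the 10 astrocyte markers none rose and 1 fell, the glutamate transporter gene Slc1a3 (-0.32, SE 0.0842, adjusted p 0.0358). Astrocyte sums were 2815 to 3451 CPM in cbx and 3143 to 3844 CPM in saline superficial libraries. The 6 neuronal markers summed to 3957 to 4138 CPM in cbx and 4159 to 4386 CPM in saline superficial libraries, with 0 of 6 called. Of the 3 inhibitory neuron markers 1 fell, Gad2 (-0.34, SE 0.0644, edgeR adjusted p 0.00774), which codes for a GABA-synthesizing enzyme, with sums of 724 to 813 CPM in cbx and 835 to 863 CPM in saline superficial libraries. The ranges of microglial, red blood cell, neuronal and inhibitory neuron sums did not overlap between treatments, while the astrocyte ranges did. Their part in the result was not tested.

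**Figure D3:**
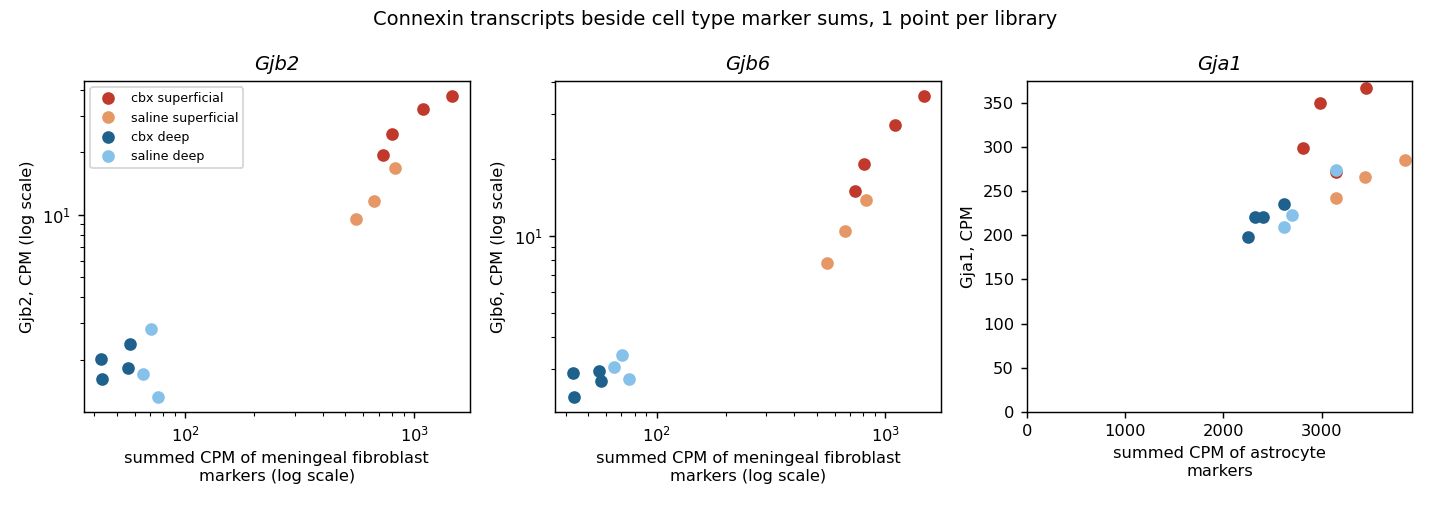
Levels of Gjb2 and Gjb6 (CPM, log scale) against the summed CPM of 12 meningeal fibroblast markers (log scale), and of Gja1 (CPM) against the summed CPM of 10 astrocyte markers, with 1 point per library. For Gjb2 and Gjb6 the cbx superficial libraries lie at the upper right and above the saline superficial libraries of like marker sum, with the deep libraries at the lower left.

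Gja1 codes for Cx43, the main gap junction protein of astrocytes, and had the most counts of the 9 genes. It was at 299, 272, 367 and 351 CPM in cbx superficial libraries, against 285, 266 and 243 CPM in saline superficial libraries. The groups overlapped, since cbx library 2 lay below saline library 1. The difference of 0.28 (SE 0.105) did not pass the threshold, with an edgeR adjusted p of 0.128. It passed with no filter on low counts (adjusted p 0.0223). In the deep layers Gja1 was at 221, 198, 236 and 221 CPM after cbx and at 275, 223 and 209.9 CPM after saline, which overlapped (difference -0.11, SE 0.104, edgeR adjusted p 0.705).

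Between layers, Gja1 was higher in superficial than in deep libraries of cbx pools by 0.56 (SE 0.0969), with an edgeR adjusted p of 0.000184 and no overlap. In saline pools the layer difference was 0.17 (SE 0.112, edgeR adjusted p 0.358), and the layers overlapped. The difference between these layer effects was 0.39 (SE 0.148) with an unadjusted p of 0.0164 and an edgeR adjusted p of 0.498, or 0.0655 with the pool as a block. Relative to the astrocyte markers, Gja1 amounted to 8.65 to 11.8 CPM per 100 CPM in cbx superficial and 7.42 to 7.73 in saline superficial libraries, and to 8.84 to 9.49 in cbx deep and 8.03 to 8.72 in saline deep libraries. In each layer the cbx range lay above the saline range. The astrocyte marker sums themselves were 2246 to 2621 CPM in cbx deep and 2614 to 3150 CPM in saline deep libraries. Between layers the 10 markers went both ways. In superficial layers 3 were higher and 2 lower after cbx, and 2 were higher and 3 lower after saline. Gfap was higher there (5.50 after cbx and 6.08 after saline) and S100b lower (-0.93 and -0.96). Over the 14 libraries, log2 CPM of Gja1 correlated with the log2 astrocyte sum at Pearson r of 0.71. With the sums of other lists r was 0.84 for meningeal fibroblasts, 0.83 for red blood cells and 0.77 for endothelial cells. The layer difference enters all of these values. The part of astrocytes, meninges or other cell classes in the result was not tested.

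The 3 connexin genes Gja1, Gjb6 and Gjb2 varied together between pools. Over the 14 libraries, deviations of log2 CPM from the group means correlated at Pearson r of 0.90 for Gja1 with Gjb2, 0.83 for Gjb6 with Gjb2 and 0.80 for Gja1 with Gjb6. Such values were not particular to these genes, since Gjd2 with Panx1 stood at 0.87. Gjb6 with Panx2 stood at -0.63. These are descriptions over libraries that share pools and dissection, with no test.

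Among the neuronal connexins, Gjd2 codes for Cx36, the protein of most electrical synapses between mammalian neurons. It was at 51.4, 47.5, 53.3 and 46.4 CPM in cbx superficial and 48.1, 44.2 and 50.5 CPM in saline superficial libraries. In deep layers it was at 110.1, 101, 99.4 and 104 CPM after cbx and at 114, 101 and 93.8 CPM after saline. Every deep library was above every superficial library, and the treatments overlapped in both layers. Superficial libraries were lower by 1.06 after cbx (log2 difference -1.06, SE 0.0706, edgeR adjusted p 8.316e-10) and by 1.11 after saline (log2 difference -1.11, SE 0.0817, edgeR adjusted p 7.402e-09). The difference between cbx and saline was 0.06 (95% confidence interval -0.10 to 0.22) in superficial layers and 0.01 (-0.15 to 0.17) in deep layers. The gene shares 57 and 18 exon bases with 2 antisense transcripts listed under A530058N18Rik, which had 18 and 3423 counts over all libraries, and whether counting used the strand is not given in the sources used here.

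Of the 2 excitatory neuron markers, Slc17a6 was lower in superficial layers, as Gjd2 was, with log2 differences of -1.05 after cbx (SE 0.0653, edgeR adjusted p 3.006e-10) and -0.97 after saline (SE 0.0753, edgeR adjusted p 1.533e-08). Slc17a7 did not pass the test in either treatment (-0.33, edgeR adjusted p 0.6, after cbx and 0.61, edgeR adjusted p 0.462, after saline). Slc17a6 and Slc17a7, which code for vesicular glutamate transporters, summed to 193 to 212 CPM in cbx superficial, 189 to 230 CPM in saline superficial, 398 to 449 CPM in cbx deep and 378 to 411 CPM in saline deep libraries. Gad1, Gad2 and Slc32a1, the inhibitory neuron markers, summed to 724 to 813 CPM in cbx superficial, 835 to 863 CPM in saline superficial, 514 to 604 CPM in cbx deep and 538 to 586 CPM in saline deep libraries. Of these 3 genes, 1 was called higher and 1 lower in superficial layers after cbx. After saline 1 was called higher there and 0 lower. The part of neuron classes in the layer difference of Gjd2 was not tested.

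Gjc1 codes for Cx45, used by immature neurons and by vascular smooth muscle. It was at 22.5, 18.6, 20.3 and 19.9 CPM in cbx superficial libraries and at 17.8, 18.3 and 16.8 CPM in saline superficial libraries. All 4 cbx values lay above the 3 saline values, but the difference of 0.21 (SE 0.106) did not pass the test (edgeR adjusted p 0.282). In deep layers the levels were 11.9, 11.6, 15.1 and 15.4 CPM after cbx and 13.6, 13.02 and 12.7 CPM after saline. Unlike Gjd2, Gjc1 was higher in superficial than in deep layers, by 0.59 after cbx (SE 0.0987, edgeR adjusted p 0.000104) and by 0.43 after saline (SE 0.115, edgeR adjusted p 0.0117). The call after saline was lost without saline superficial library 2 (adjusted p 0.053), without saline deep library 3 (adjusted p 0.0501) and without saline pool 1 and cbx pool 4 (adjusted p 0.0737). Pericyte and smooth muscle markers summed to 157 to 207 CPM in cbx superficial, 188 to 216 CPM in saline superficial, 128 to 163 CPM in cbx deep and 166 to 170 CPM in saline deep libraries, so the superficial and deep ranges overlapped after cbx but not after saline.

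Gjb1 codes for Cx32, a connexin of oligodendrocytes, and was among the lowest of the 9 genes in every group. It was at 2.81, 2.73, 1.66 and 1.43 CPM in cbx superficial, 2.83, 2.14 and 2.37 CPM in saline superficial, 2.64, 2.43, 2.57 and 2.77 CPM in cbx deep and 2.83, 1.15 and 2.09 CPM in saline deep libraries. All 4 groups overlapped. No comparison of Gjb1 passed the test, and its intervals were wide: the superficial difference between cbx and saline was -0.19 with a 95% confidence interval of -0.75 to 0.38. Oligodendrocyte markers summed to 293 to 370 CPM in cbx superficial and 285 to 511 CPM in saline superficial libraries, against 517 to 682 CPM in cbx deep and 537 to 656 CPM in saline deep libraries. Of the 10 markers, 6 were lower and none higher in superficial layers after cbx, and 4 were lower and 1 higher after saline. For Gjb1 the layer difference did not pass the test (-0.28, SE 0.251, edgeR adjusted p 0.438 after cbx and 0.27, SE 0.293, edgeR adjusted p 0.602 after saline), and the part of the markers was not tested.

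Gja4 codes for Cx37, a connexin of arterial endothelium. The gene was at 14.1, 16.8, 15.4 and 16.4 CPM in cbx superficial libraries and 14.6, 15.6 and 15.5 CPM in saline superficial libraries. Deep libraries were at 13.5, 12.3, 12.5 and 13.2 CPM after cbx and 13.001, 13.8 and 14.4 CPM after saline. Superficial libraries lay above deep ones without overlap in both treatments, by 0.28 after cbx (SE 0.0822, edgeR adjusted p 0.012) and by 0.14 after saline (SE 0.095), the second of which did not pass (edgeR adjusted p 0.354). The cbx call was lost without cbx deep library 2 (adjusted p 0.0727) and without saline pool 1 and cbx pool 4 (adjusted p 0.0704). The 5 arterial endothelial markers summed to 51.7 to 76.3 CPM in cbx superficial, 61.6 to 67.2 CPM in saline superficial, 35.8 to 39.7 CPM in cbx deep and 40.1 to 40.9 CPM in saline deep libraries. Of these markers 4 of 5 were higher in superficial layers after cbx and 2 of 5 after saline, and their part in the layer difference of Gja4 was not tested.

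The pannexins differed from each other. Panx1, a widely expressed channel that releases ATP, was at 146, 134, 148 and 130.1 CPM in cbx superficial, 153, 140.04 and 148 CPM in saline superficial, 144, 129, 137 and 136 CPM in cbx deep and 157, 144 and 142 CPM in saline deep libraries. The 4 groups overlapped, and no comparison passed the test. The intervals of its differences were narrow: superficial minus deep was 0.03 after cbx (95% confidence interval -0.10 to 0.16) and -0.004 after saline (-0.15 to 0.14). Cbx minus saline was -0.08 in superficial layers (-0.21 to 0.06) and -0.11 in deep layers (-0.25 to 0.03).

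Panx2, expressed mostly in the nervous system, was at 64.7, 65.5, 62.8 and 56.2 CPM in cbx superficial and 55.8, 58.3 and 61.0 CPM in saline superficial libraries. Its deep levels were 107, 93.7, 97.5 and 98.8 CPM after cbx and 91.0, 93.6 and 89.9 CPM after saline. Superficial libraries were lower, with log2 differences of -0.67 after cbx (SE 0.0622, edgeR adjusted p 7.349e-08) and -0.65 after saline (SE 0.072, edgeR adjusted p 1.768e-06). Every deep library was above every superficial library. In deep layers the 4 cbx values lay above the 3 saline values, but the difference of 0.12 (SE 0.0668) did not pass the test (edgeR adjusted p 0.421).

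To set the genes beside each other, levels were divided by the length of the longest coding transcript. Gja1 was first in all 4 groups, at 101 ± 13.8 CPM per kb in cbx superficial (SD, n = 4), 83.2 ± 6.67 in saline superficial (SD, n = 3), 68.8 ± 4.88 in cbx deep (SD, n = 4) and 74.1 ± 10.8 CPM per kb in saline deep libraries (SD, n = 3). In superficial layers Panx1 came next, at 24.3 CPM per kb after cbx and 25.6 after saline, and then Panx2 and Gjd2, whose libraries overlapped. In deep layers Gjd2 was next after Gja1, at 36.0 CPM per kb after cbx and 35.7 after saline. There Panx2 and then Panx1 followed, without overlap after cbx and with overlap after saline. Gja4 and Gjc1 lay at 5.66 to 9.29 CPM per kb in every group.

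The lower end of the order held Gjb2, Gjb6 and Gjb1. In cbx superficial libraries Gjb2 and Gjb6 held ranks 5 and 6, at 11.8 and 11.4 CPM per kb, and their libraries overlapped with each other, while those of Gjb6 overlapped with Gja4 as well. They held ranks 7 and 8 in saline superficial libraries, at 5.29 and 5.06 CPM per kb. In deep libraries Gjb2 was last, at 0.815 CPM per kb after cbx and 0.813 after saline. The ratio of Gjb2 to Gjb6 in CPM was 1.22 ± 0.112 in cbx superficial (SD, n = 4), 1.19 ± 0.0603 in saline superficial (SD, n = 3), 0.721 ± 0.112 in cbx deep (SD, n = 4) and 0.625 ± 0.183 in saline deep libraries (SD, n = 3). Within each layer the ranges of this ratio overlapped between treatments, and superficial libraries lay above deep ones.

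As shares of the 9 genes' summed CPM per kb, Gja1 made up 49.5% in cbx superficial, 48.6% in saline superficial, 39.3% in cbx deep and 41.1% in saline deep libraries. Gjb2 and Gjb6 made up 5.73% and 5.50% in cbx superficial libraries and 3.06% and 2.93% in saline superficial libraries, and each stayed under 1% in deep layers. Gjd2 made up 8.51% in cbx superficial, 9.69% in saline superficial, 20.5% in cbx deep and 19.8% in saline deep libraries. The order depends on the length used: with the merged exons of all annotated transcripts, a choice added after the data were seen, Gja1 held rank 4 in both deep groups and rank 1 in both superficial groups.

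**Figure D4:**
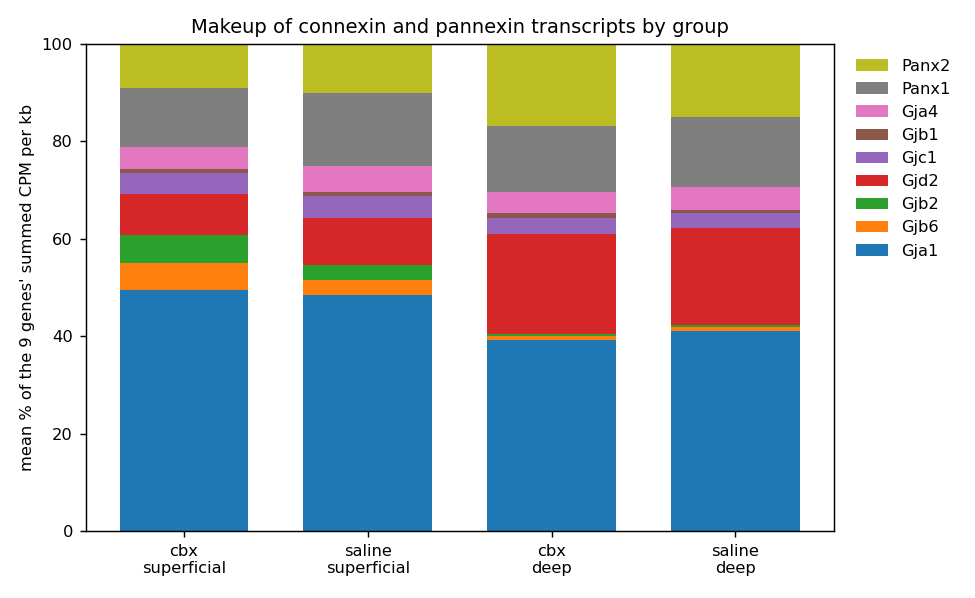
Share of each gene in the summed CPM per kb of the 9 genes (y axis, mean % over libraries, from 0 to 100) in the 4 groups (x axis). Gja1 makes up 39.3% to 49.5%, Gjd2 more in deep than in superficial layers, and Gjb2 with Gjb6 is a visible part only in superficial layers.

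Other connexin genes were measured beside the 9. Gje1 had 0 counts in all 14 libraries, which allows up to 3 counts in each, and Gja3, the neighbour of Gjb2 and Gjb6, did not pass the filter on low counts. Gja5, which codes for Cx40 of arterial endothelium, was higher in superficial layers after cbx, at 2.17 ± 0.499 CPM against 0.765 ± 0.248 CPM in deep layers (SD, n = 4 each; difference 1.50, SE 0.326, edgeR adjusted p 0.00135). Gjc3, which codes for Cx29 of myelinating cells, was lower in superficial layers after cbx, at 12.5 ± 1.33 CPM against 18.6 ± 1.51 CPM in deep layers (SD, n = 4 each; difference -0.57, SE 0.164, edgeR adjusted p 0.0131). After saline neither layer difference passed the test (Gja5 0.39, SE 0.385, edgeR adjusted p 0.561, and Gjc3 -0.44, SE 0.187, edgeR adjusted p 0.127). Neither Gja5 (0.93, SE 0.346, edgeR adjusted p 0.128) nor Gjc3 (-0.28, SE 0.177, edgeR adjusted p 0.401) passed the test between cbx and saline in superficial layers.

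Of 19 genes for connexin scaffolds and kinases, which hold gap junctions in place or phosphorylate connexins, 1 rose and 1 fell after cbx in superficial layers and none passed in deep layers. Ccn3, whose product binds Cx43, was at 34.8 ± 17.0 CPM in cbx (SD, n = 4) and 13.2 ± 2.11 CPM in saline superficial libraries (SD, n = 3), a rise of 1.40 (SE 0.329, edgeR adjusted p 0.04). Camk2g, a subunit of calcium/calmodulin kinase, fell by 0.29 (log2 difference -0.29, SE 0.0623, edgeR adjusted p 0.0133). Between layers 5 of the 19 were higher and 5 lower in superficial libraries after cbx, and 1 was higher and 4 lower after saline. Cav1, which codes for caveolin, was higher in superficial layers in both treatments (1.27, SE 0.099, after cbx and 0.90, SE 0.114, after saline), and Camk2d was lower in both (-0.53, SE 0.0521, after cbx and -0.45, SE 0.0601, after saline). The list's median difference between cbx and saline was -0.07 in superficial and -0.06 in deep layers.

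Of 21 genes for ATP and adenosine receptors and the enzymes that break ATP down, 20 were tested. After cbx 3 rose in superficial layers and none fell: P2ry13 (0.82, SE 0.15, edgeR adjusted p 0.00605), P2ry12 (0.37, SE 0.0754, edgeR adjusted p 0.0109) and P2ry6 (0.83, SE 0.18, edgeR adjusted p 0.0146). All 3 code for nucleotide receptors of microglia in the brain, and P2ry12 is also 1 of the 6 microglial markers. None of the 20 passed in deep layers, and the list's median difference was 0.10 in superficial and 0.01 in deep layers. Between layers 5 were higher and 5 lower in superficial libraries after cbx, and 2 were higher and 4 lower after saline. Of 9 genes for other large-pore channels, the CALHM and LRRC8 families, 7 were tested and 0 passed in edgeR in any comparison, with Calhm5 and Lrrc8b under an unadjusted p of 0.05 between cbx and saline superficial libraries (adjusted p 0.106 and 0.189), Lrrc8c between cbx and saline deep libraries (adjusted p 0.211), and Calhm5 and Lrrc8c between layers after cbx (adjusted p 0.0657 and 0.0953).

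Genes whose log2 CPM followed each of the 9 most closely over the 14 libraries were found among 13691 protein-coding genes with a mean of at least 1 CPM. For Gjb2 they were Slc6a12 (Pearson r 0.99), Pcolce (0.99) and Serpinh1 (0.99), and for Gjb6 they were Tmem64 (0.99), Anpep (0.99) and Serpinh1 (0.99). Pcolce is 1 of the 12 meningeal markers. For Gjd2 they were Slc17a6 (0.99), Dnajc6 (0.99) and Inpp4a (0.99), and for Panx2 1700001L19Rik, Htr1b and Map2k4 (0.99 each). Slc17a6 is the glutamate transporter gene among the excitatory neuron markers.

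Likeness was lower for the other genes. Gja1 was followed by Sfrp1 (0.96), Olfml2a (0.96) and Slc2a12 (0.96), Gjc1 by Lpar6, Crym and Bst2 (0.96 each), and Gja4 by Bend5 (0.96), Mknk1 (0.93) and Stk17b (0.92). The closest to Panx1 reached 0.89 (Lrp11, then Cst3 and Slc39a6), and the closest to Gjb1 reached 0.77 (Thpo, then Arsk and Tmem42). Since the layers stand apart, any gene with a layer difference scores high. The correlations of deviations from the group means, which leave that difference out, were 0.87 for Gjb2 with Slc6a12, 0.89 for Gjb6 with Tmem64, 0.74 for Gjd2 with Slc17a6 and 0.86 for Gja1 with Sfrp1.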

How the data were processed

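RNA was poly-A selected and read as 150-base pairs, per the labels' protocols. The deposited files are the authors' raw read counts per Ensembl gene, 1 table per library. Per the submitters' processing notes, featureCounts, Subread 2.0.1, SAMtools 1.14, STAR 2.7.9d and FastQC 0.11.9 were used, and mm10 and GRCm39 are named without a role. For annotation and strand setting, nothing is given in the sources used here. Symbols (52083 IDs, 98.7% of counts), gene types and lengths came from GENCODE M21 and were matched by Ensembl ID.

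Counts were fitted with edgeR 4.0.16 in R 4.3.3 (TMM, filterByExpr by group, 4 group means over 14 libraries, robust quasi-likelihood, 10 residual degrees of freedom), with Benjamini-Hochberg adjustment over all genes tested, and the fit was tested on simulated data. Likeness used log2 CPM with a prior count of 2. The 9 genes, the lists and the tests were chosen with earlier results of these data known. All 9 genes were named, up to 4 genes of smallest p per list, and 3 like genes each. Some genes of the lists are not reported here.

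Replicate numbers come from the titles. Same-numbered layers of 1 treatment deviated together at r of 0.182 to 0.394 in 7 of 7 pairs over 15168 genes with a mean of at least 1 CPM (0.00501 to 0.18 over all genes tested), so layers were taken as paired, although no label says that numbers stand for the same brains. Same-numbered treatments correlated at -0.276 to -0.0167 over 6 pairs and share only a number. No replicate pair was a library deposited again (chi-square per gene 7.16 to 47.5 over 18 pairs). Alternatives were other scaling, filters, DESeq2 1.42.0, limma-voom (limma 3.58.1), only the groups compared, a fold change threshold of 1.2, left-out libraries or pools, replicate blocks, and other lengths.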

Additional observations from a re-analysis of the deposited data

How the results depend on the processing

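Over 45 differences of the 9 genes and their alternatives, 1017 of 1071 values kept direction and call. Only 14 of the 45 were called in the main test. For the rest, staying uncalled with the same sign counted as kept. Some left-out libraries were also of groups outside the comparison. Of 14 calls, 10 held under every alternative run. The superficial count of 2 genes called between cbx and saline was 0 with only the groups compared (adjusted p 0.094 for Gjb2 and 0.15 for Gjb6) and 0 against a fold change of 1.2, and 0 to 2 with a library left out. The count for the difference of the cbx effect between layers was 2 with no low-count filter, 1 with DESeq2 and 2 with the pool as a replicate block, against 0 in the main test. The replicate block changed no other call. The Gja4 call between layers after cbx was also lost with no low-count filter (adjusted p 0.0804) and against a fold change of 1.2 (0.511), and the Gjc1 call after saline against that fold change (0.195). The causes were not tested.

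All 32 sign changes were in differences that did not pass the test. Without saline pool 1 and cbx pool 4, cbx minus saline was 0.0848 for Gjb1 and -0.00919 for Gja4 in superficial layers and -0.0019 for Gjc1 and 0.0125 for Gja1 in deep layers, and the layer difference of Panx1 after saline was 0.0152. For Gjb2 in deep layers cbx minus saline was -0.0522 with the replicate number as a block. The layer difference of Panx1 after cbx was -0.00225 with median-of-ratios size factors, -0.0109 with a filter of 1 CPM in 3 libraries and -0.00237 with DESeq2. With a library left out, cbx minus saline in deep layers ranged from -0.0524 to 0.0905 for Gjd2, -0.0279 to 0.102 for Gjc1, -0.184 to 0.0169 for Gja1 and -0.201 to 0.361 for Gjb2. Layer differences ranged from -0.0284 to 0.0602 for Panx1 after cbx, -0.0319 to 0.0435 for Panx1 after saline and -0.00622 to 0.587 for Gjb1 after saline. The difference between layers of the cbx effect ranged from -0.0298 to 0.113 for Gjd2, -0.0133 to 0.0638 for Panx1 and -0.065 to 0.020 for Panx2. The fewest counts stood behind Gjb1, with 38 to 126 per library, and Gjb2 in deep layers, with 44 to 96.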
